A study of Saccharomyces cerevisiae with 8 samples.

Results

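The expression of 10 genes of yeast meiosis and spore formation was followed in growing cultures of Saccharomyces cerevisiae. They were chosen by name: IME1 (YJR094C), IME2 (YJL106W), NDT80 (YHR124W), REC8 (YPR007C), HOP1 (YIL072W), SPS4 (YOR313C), SMK1 (YPR054W), CDA1 (YLR307W), CDA2 (YLR308W) and DIT1 (YDR403W). They are 10 of the 6576 systematic names on the array. Of the 10, 9 had enough signal to be tested and SMK1 did not.

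The samples came from 3 strains, and all 3 lack IRE1, the endoplasmic reticulum sensor that starts the unfolded protein response. The reference carries that deletion alone (Δire1, n = 3). The next also overexpresses SSZ1, an Hsp70-like protein of the ribosome (SSZ1OEΔire1, n = 2), and the last adds deletion of SCJ1, a J-domain chaperone of the endoplasmic reticulum lumen (SSZ1OEΔire1Δscj1, n = 3). All cultures were growing in synthetic medium at 30 °C and taken in early log phase, with no starvation or sporulation step in the labels, and each sample was read on 1 one-colour Agilent array of 1 slide. The labels used here give no ploidy, mating type, clone number or promoter for the SSZ1 construct. Samples are called independent there, but separate cultures are not named, so the p-values reflect only the spread among these arrays, part of which may be technical.

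Meiosis in budding yeast is normally a starvation response of cells that carry both mating types. Ime1 is the transcription factor that opens the programme, and the kinase Ime2 carries it on. Early genes such as REC8 and HOP1 build the meiotic chromosome axis, Ndt80 then switches on the middle genes of nuclear division and spore assembly, and the late genes lay down the outer spore wall of chitosan and dityrosine. In growing cells the set is largely repressed, the early genes through Ume6 and the middle genes through the Sum1 complex.

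Levels are given as log2 processed signal minus that of the 75th percentile of the same array, so a negative level is a signal under that percentile. The genes were dim. Of the 9 tested members, 7 lay among the dimmest 25% of all tested genes by mean signal, and NDT80 and CDA1 lay among the next 25%. Levels of different genes come from different probes and are not compared. The measurements are of whole cultures, so a gene that is high in a few cells and one that is slightly higher in all cells cannot be told apart.

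The targeted genes were checked first. IRE1 was well above background on 0 of 8 arrays. SSZ1 had a mean level of 2.97 ± 0.15 (SD, n = 3) in Δire1, 5.84 ± 0.32 (n = 2) in SSZ1OEΔire1 and 5.37 ± 0.16 (n = 3) in SSZ1OEΔire1Δscj1. SCJ1 was not well above background in SSZ1OEΔire1Δscj1, where it was at least 317-fold lower than in Δire1. The 75th percentile of signal was 5037 to 7152 on the arrays of Δire1 and SSZ1OEΔire1 and 9041 to 10016 on those of SSZ1OEΔire1Δscj1. The slide has 2 rows: both SSZ1OEΔire1 arrays sat in row 1, all 3 SSZ1OEΔire1Δscj1 arrays in row 2, and Δire1 was split, with replicates 1 and 2 in row 1 and replicate 3 in row 2. Negative control spots had medians of 3.55 to 5.05 in row 1 and 9.49 to 14.4 in row 2, so differences within a row are given beside the pooled ones. Δire1 replicate 2 stood apart, with a median absolute difference over genes of 0.20 to 0.21 from the other Δire1 arrays, which differed from each other by 0.056.

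**Figure D1:**
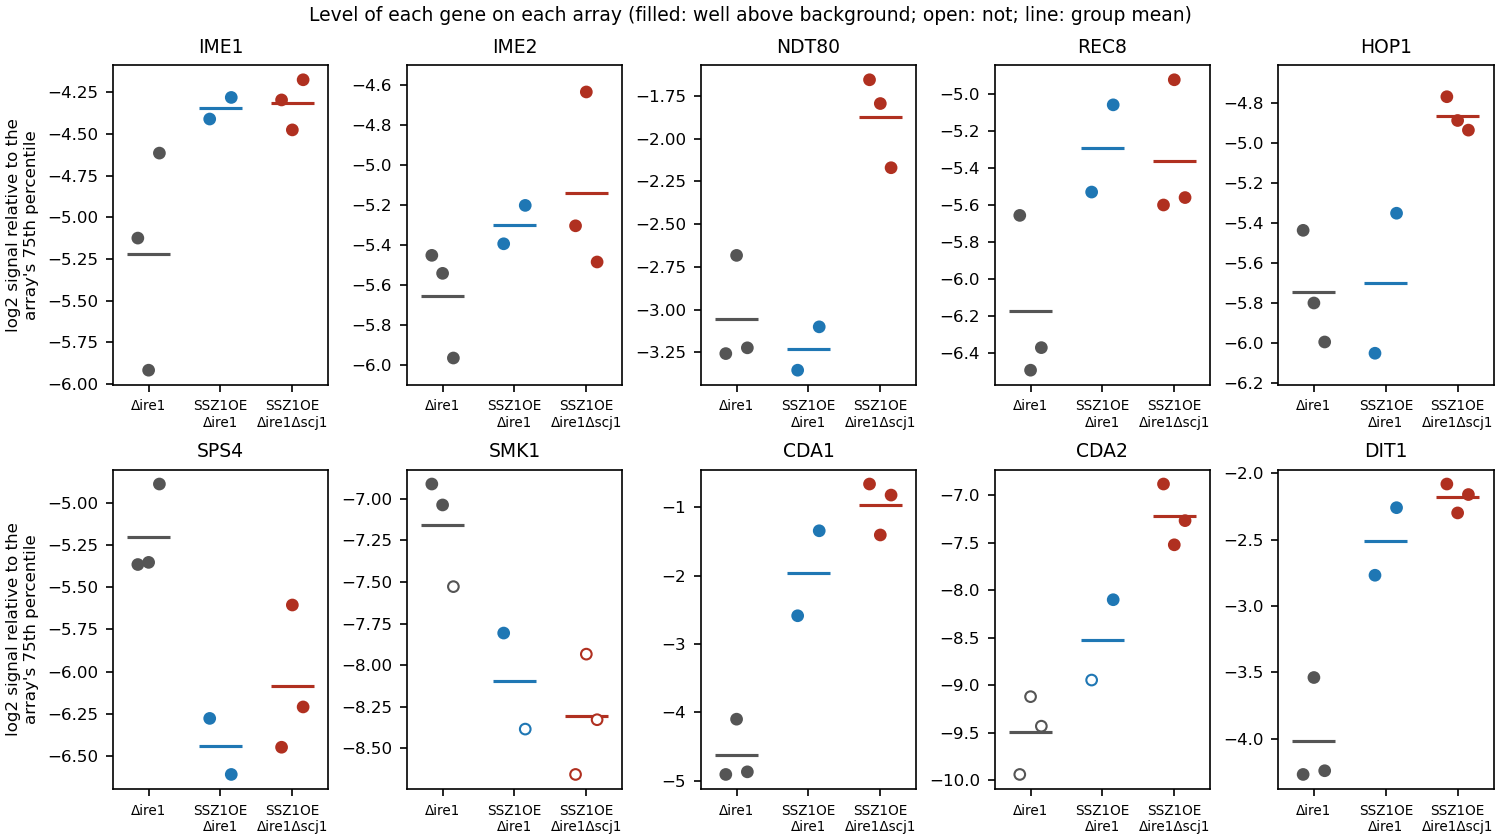
Level of each of the 10 genes on each of the 8 arrays (y axis, log2 signal minus that of the 75th percentile of the array, a separate scale per gene) by strain (x axis). Filled points are arrays on which the gene was well above background, open points are arrays on which it was not, and lines are group means. NDT80 and HOP1 are higher on the SSZ1OEΔire1Δscj1 arrays than on all others, CDA1 and DIT1 are higher in both SSZ1-overexpressing strains, and SPS4 and SMK1 lie below the Δire1 arrays in both.

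In SSZ1OEΔire1 against Δire1, the spore wall genes CDA1 and DIT1 were higher and SPS4 was lower, while NDT80 and HOP1 differed from Δire1 by −0.17 and 0.043 and did not pass the test. In SSZ1OEΔire1Δscj1 against Δire1, 7 genes were higher (CDA1, CDA2, DIT1, NDT80, IME1, HOP1 and REC8) and SPS4 was lower. Between the 2 overexpressing strains, NDT80 and CDA2 were higher in SSZ1OEΔire1Δscj1. CDA2 entered the test only through its signal in SSZ1OEΔire1Δscj1, the strain where it was high, so that filter bears on its 2 calls and the counts are also given without it. The largest difference was that of CDA1, 12.6-fold between SSZ1OEΔire1Δscj1 and Δire1.

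These counts stand against busy backgrounds. In SSZ1OEΔire1 against Δire1, limma called 11.4% of 6244 tested genes at an adjusted p of 0.05, 7.48% higher and 3.88% lower, so 2 members higher and 1 lower of 9 compare with shares of that size. In SSZ1OEΔire1Δscj1 against Δire1, 38.3% were called, 21.3% higher and 16.9% lower, against 7 and 1 of 9 members. In SSZ1OEΔire1Δscj1 against SSZ1OEΔire1, 11.9% were called, 6.28% higher and 5.57% lower, against 2 and 0 of 9. Over the 8 members that were well above background on every array, which leaves out CDA2, the counts higher were 2, 6 and 1 and the counts lower 1, 1 and 0. Dim genes were called higher more often: among the dimmest 25% of genes the shares higher were 14.2%, 31.3% and 7.5% in the same order. At an unadjusted p of 0.05 the members past the test numbered 6, 8 and 4. The median difference of the 9 tested members was 0.87, 0.90 and 0.35 on the log2 scale, and that of all tested genes was 0.026, 0.019 and −0.0046. With CDA2 set at its bound where it was below background, the first 2 medians became 0.36 and 0.88, and over the 8 members without CDA2 the 3 medians were 0.61, 0.89 and 0.34. The first 2 comparisons share the Δire1 arrays, so they are not independent of each other. The members were chosen with earlier results of these data known, so their counts describe these arrays and are not independent evidence.

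**Figure D2:**
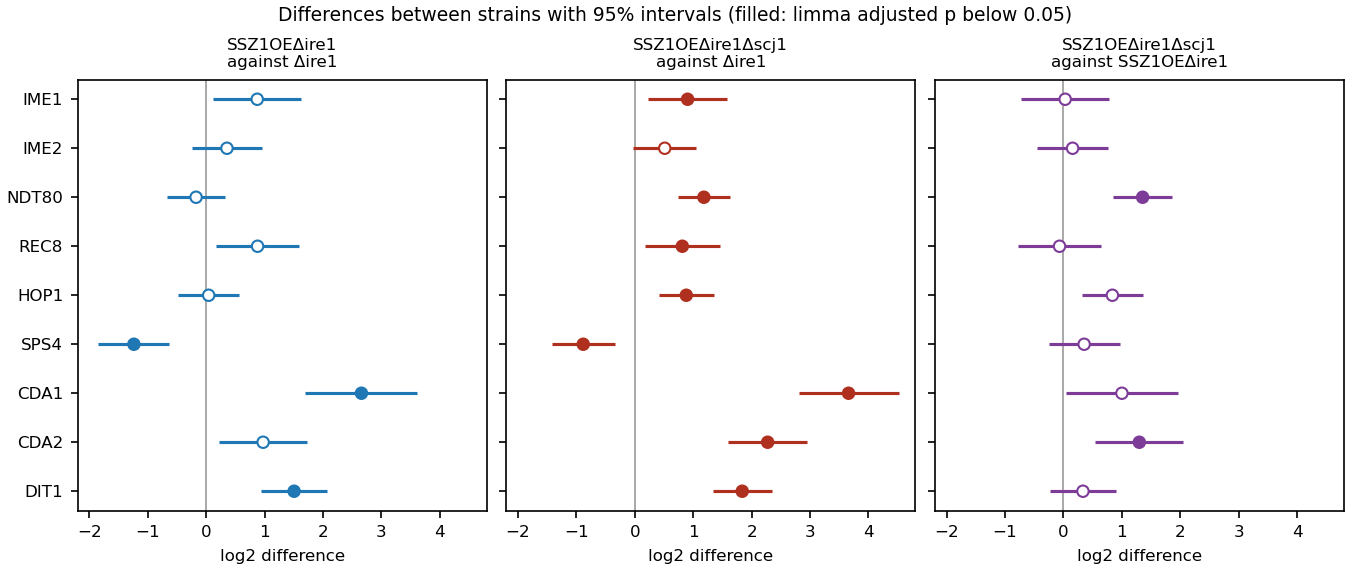
Difference in level between strains for the 9 tested genes (x axis, log2 difference; bars, 95% intervals from limma), in 1 panel per comparison. Filled points passed an adjusted p of 0.05. SSZ1OEΔire1 against Δire1 has 3 filled points (CDA1, DIT1 and SPS4), SSZ1OEΔire1Δscj1 against Δire1 has 8, and SSZ1OEΔire1Δscj1 against SSZ1OEΔire1 has 2 (NDT80 and CDA2). CDA2 was not well above background in Δire1, so its differences from that strain are fitted values and not bounds.

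Of the 3 regulators, NDT80 differed in SSZ1OEΔire1Δscj1 from both other strains. NDT80, the activator of the middle genes, had levels of −3.26, −2.68 and −3.22 in Δire1, −3.36 and −3.10 in SSZ1OEΔire1, and −1.65, −1.79 and −2.17 in SSZ1OEΔire1Δscj1, and it was well above background on all 8 arrays. All 3 SSZ1OEΔire1Δscj1 arrays lay above the other 5, while the other strains overlapped. NDT80 was 2.27-fold higher in SSZ1OEΔire1Δscj1 than in Δire1 (log2 difference 1.18, SE 0.19, limma adjusted p = 0.00417). It was 2.56-fold higher than in SSZ1OEΔire1 (1.36, SE 0.22, adjusted p = 0.0145). In SSZ1OEΔire1 against Δire1 the difference was −0.17 with a 95% interval of −0.67 to 0.33 (adjusted p = 0.639). Within slide row 2, SSZ1OEΔire1Δscj1 exceeded the single Δire1 array by 1.35, and within row 1 SSZ1OEΔire1 differed from Δire1 by −0.26. The 2 overexpressing strains lie in different rows and are tied only through Δire1. With slide row in the fit their difference in NDT80 was 1.61 with an adjusted p of 0.188, and without SSZ1OEΔire1 replicate 1 or SSZ1OEΔire1Δscj1 replicate 1 the adjusted p was 0.143 or 0.0551.

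IME1, the master regulator of entry into meiosis, had levels of −5.13, −5.92 and −4.61 in Δire1, −4.41 and −4.28 in SSZ1OEΔire1, and −4.30, −4.48 and −4.17 in SSZ1OEΔire1Δscj1. The Δire1 arrays lay below all 5 others but were spread over more than a log2 unit. The difference passed the test in SSZ1OEΔire1Δscj1 against Δire1 (0.90, SE 0.29, adjusted p = 0.0427) and did not in SSZ1OEΔire1 against Δire1 (0.87, SE 0.32, adjusted p = 0.127). Those values are close, and the difference between the 2 overexpressing strains was 0.030 with an interval of −0.73 to 0.79. Within row 2 the SSZ1OEΔire1Δscj1 difference from Δire1 was 0.30, within row 1 that of SSZ1OEΔire1 was 1.18, and Δire1 itself was 0.91 higher in row 2 than in row 1. On Δire1 replicate 3 the 9 spots of the IME1 probe ran from 220 to 667 in processed signal with a median of 233. Of 20 alternative settings, 10 kept the IME1 call. Of the 8 that leave out 1 array, only those without Δire1 replicate 2 or 3 did, and the others gave adjusted p values of 0.0654 to 0.112.

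IME2, the kinase downstream of Ime1, had levels of −5.45, −5.54 and −5.97 in Δire1, −5.39 and −5.20 in SSZ1OEΔire1, and −5.30, −4.63 and −5.49 in SSZ1OEΔire1Δscj1. SSZ1OEΔire1Δscj1 replicate 2 was the highest and Δire1 replicate 3 the lowest, and SSZ1OEΔire1Δscj1 overlapped both other strains. IME2 did not pass the test in any comparison. The largest of its differences, SSZ1OEΔire1Δscj1 against Δire1, was 0.51 (SE 0.23, interval −0.028 to 1.05, adjusted p = 0.118).

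The early genes had modest differences. HOP1, a protein of the meiotic chromosome axis, had levels of −5.44, −5.80 and −6.00 in Δire1, −6.05 and −5.35 in SSZ1OEΔire1, and −4.77, −4.89 and −4.94 in SSZ1OEΔire1Δscj1. As with NDT80, the SSZ1OEΔire1Δscj1 arrays lay above the other 5 and the other strains overlapped. HOP1 was 1.84-fold higher in SSZ1OEΔire1Δscj1 than in Δire1 (0.88, SE 0.20, adjusted p = 0.0127), and 1.13 higher within slide row 2, and quantile normalization ended the call (adjusted p = 0.0647). Against SSZ1OEΔire1 the difference was 0.84 (SE 0.22, interval 0.31 to 1.36) and missed the threshold with an adjusted p of 0.0523 (0.0452 without SSZ1OEΔire1 replicate 2). In SSZ1OEΔire1 against Δire1 it was 0.043 (interval −0.48 to 0.57), and its sign turned in 6 of 20 settings.

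REC8, the meiotic cohesin subunit that holds sister chromatids together, had levels of −5.66, −6.50 and −6.37 in Δire1, −5.53 and −5.06 in SSZ1OEΔire1, and −5.60, −4.92 and −5.56 in SSZ1OEΔire1Δscj1. The Δire1 arrays lay below the other 5, with replicate 1 only just below them. The difference was 0.81 in SSZ1OEΔire1Δscj1 (SE 0.27, adjusted p = 0.0498) and 0.88 in SSZ1OEΔire1 (SE 0.31, adjusted p = 0.107). The call was at the edge of the threshold, and 5 of 20 settings kept it. Of the 8 settings that leave out 1 array, only that without Δire1 replicate 1 kept it, and the others gave adjusted p values of 0.0621 to 0.142. Within rows the differences were 1.01 for SSZ1OEΔire1Δscj1 and 0.78 for SSZ1OEΔire1.

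For the middle genes SPS4 and SMK1, every Δire1 array lay above every array of the other strains. SPS4, named for its sporulation-specific transcript, had levels of −5.37, −5.35 and −4.89 in Δire1, −6.28 and −6.61 in SSZ1OEΔire1, and −6.45, −5.61 and −6.21 in SSZ1OEΔire1Δscj1. SPS4 was 2.36-fold lower in SSZ1OEΔire1 (log2 difference −1.24, SE 0.26, adjusted p = 0.0259) and 1.84-fold lower in SSZ1OEΔire1Δscj1 (−0.88, SE 0.23, adjusted p = 0.0217). Within rows the differences were −1.08 and −1.20. On Δire1 replicate 3, the only Δire1 array of row 2, the 9 spots of the SPS4 probe ran from 183 to 460 in processed signal. Their median was 210. The overexpressing strains differed from each other by 0.35 (interval −0.25 to 0.96). The SSZ1OEΔire1Δscj1 call was lost when spike-in probes set the scale (adjusted p = 0.167), and 13 and 16 of 20 settings kept the calls in SSZ1OEΔire1 and SSZ1OEΔire1Δscj1. The SSZ1OEΔire1 call ended without SSZ1OEΔire1 replicate 1 or 2 (adjusted p = 0.0747 and 0.201) and without Δire1 replicate 1 or 3 (0.0529 and 0.0769). The SSZ1OEΔire1Δscj1 call ended without Δire1 replicate 3 (0.0733) and without SSZ1OEΔire1Δscj1 replicate 1 or 3 (0.0683 and 0.0646).

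SMK1, the MAP kinase of spore wall assembly, was at the limit of detection. Its levels were −6.91, −7.04 and −7.53 in Δire1, −7.81 and −8.38 in SSZ1OEΔire1, and −8.66, −7.93 and −8.33 in SSZ1OEΔire1Δscj1. It was well above background on only 3 arrays, Δire1 replicates 1 and 2 and SSZ1OEΔire1 replicate 1, so it entered no test. Measured against the dimmest signal that counted as above background on each array, SMK1 was at least 1.54-fold lower in SSZ1OEΔire1Δscj1 than in Δire1. The 2 of 3 Δire1 arrays that measured it lie in slide row 1, and all SSZ1OEΔire1Δscj1 arrays lie in row 2. Strain and slide row are thus not separated in this bound. Within rows the differences from Δire1 were −1.12 for SSZ1OEΔire1 and −0.78 for SSZ1OEΔire1Δscj1, and no array in row 2 measured SMK1.

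The spore wall genes were higher in the overexpressing strains. CDA1, a chitin deacetylase that makes the chitosan layer of the spore wall, had levels of −4.91, −4.10 and −4.87 in Δire1, −2.59 and −1.34 in SSZ1OEΔire1, and −0.66, −1.41 and −0.82 in SSZ1OEΔire1Δscj1. All 5 overexpressing arrays lay well above the Δire1 arrays, and the overexpressing strains overlapped. Relative to Δire1, CDA1 was 6.31-fold higher in SSZ1OEΔire1 (2.66, SE 0.41, adjusted p = 0.0107). In SSZ1OEΔire1Δscj1 it was 12.6-fold higher (3.66, SE 0.37, adjusted p = 0.000833). Within rows the differences were 2.54 and 3.90. The interval of the difference between the overexpressing strains was 0.044 to 1.96 (adjusted p = 0.144). Without SSZ1OEΔire1 replicate 2 the SSZ1OEΔire1 difference was 2.04 and the adjusted p was 0.0804.

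CDA2 encodes a related chitin deacetylase and lies near CDA1. Its levels were −9.94, −9.12 and −9.43 in Δire1, −8.95 and −8.10 in SSZ1OEΔire1, and −6.88, −7.52 and −7.27 in SSZ1OEΔire1Δscj1. It was well above background on 4 arrays, those of SSZ1OEΔire1Δscj1 and SSZ1OEΔire1 replicate 2, and on no Δire1 array. CDA2 was at least 1.84-fold higher in SSZ1OEΔire1Δscj1 than in Δire1. The limma adjusted p of 0.00189 belongs to the fitted difference against signals at background, and not to this bound. Against SSZ1OEΔire1, where 1 of 2 arrays measured it, the fitted difference was 1.30 (SE 0.32, adjusted p = 0.0428), a call that 6 of 19 settings kept. Of those that leave out 1 array, only those without Δire1 replicate 1 or 2 kept it, and the others gave adjusted p values of 0.0551 to 0.280. SSZ1OEΔire1 against Δire1 did not pass (adjusted p = 0.095). Whether part of the CDA2 signal comes from the related CDA1 transcript was not tested.

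DIT1 makes the dityrosine precursor of the outermost spore wall layer. Its levels were −4.27, −3.54 and −4.24 in Δire1, −2.77 and −2.26 in SSZ1OEΔire1, and −2.08, −2.30 and −2.16 in SSZ1OEΔire1Δscj1. As for CDA1, the 5 overexpressing arrays lay above all Δire1 arrays and overlapped each other. DIT1 was 2.84-fold higher in SSZ1OEΔire1 (1.51, SE 0.24, adjusted p = 0.0115). In SSZ1OEΔire1Δscj1 it was 3.58-fold higher than in Δire1 (1.84, SE 0.22, adjusted p = 0.00156). Within rows the differences were 1.39 and 2.06, and between the overexpressing strains the difference was 0.33 (interval −0.23 to 0.90). Without SSZ1OEΔire1 replicate 2 the SSZ1OEΔire1 difference was 1.25 with an adjusted p of 0.116.

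Counted by overlap over all 10 members, 6 had every SSZ1OEΔire1 array above every Δire1 array (IME1, IME2, REC8, CDA1, CDA2 and DIT1). SPS4 and the untested SMK1 had every array below. Over all tested genes those shares were 26.9% and 19.5%. In SSZ1OEΔire1Δscj1 against Δire1 the members numbered 7 above and 2 below, against 27.3% and 23.3%. In SSZ1OEΔire1Δscj1 against SSZ1OEΔire1, 3 were above (NDT80, HOP1 and CDA2) and 0 below, against 29.5% and 29.5%. Over the 8 members well above background on every array, the counts above and below were 5 and 1, 6 and 1, and 2 and 0.

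Over the 8 arrays CDA1 and DIT1 moved most alike, with a Pearson r of 0.99, and CDA1 and CDA2 had r = 0.95. NDT80 correlated with CDA2 and HOP1 at 0.85 each and with IME1 at 0.25. SPS4 was negatively correlated with all 8 other tested members, from −0.26 with NDT80 to −0.84 with DIT1. These are descriptions over 8 arrays in 3 strains, and arrays of a strain share genotype, most of their slide row and their place in the strain differences above.

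Across the genome, the tested genes most like CDA1 over the 8 arrays were SPO74, a component of the meiotic spindle pole body (r = 0.998), HIM1 (0.994) and LOT6 (0.994). Those most like DIT1 were YOL160W (0.999), DPA10 (0.996) and EMP46 (0.996). NDT80 was most like YNR064C (0.991), NTA1 (0.989) and MNC1 (0.988), and HOP1 most like YOR012W (0.985), YJL118W (0.976) and YOR013W (0.972). For CDA2 they were STU1 (0.986), ECM18 (0.985) and KTR6 (0.985), and for SPS4 they were AGP1 (0.970), ADH5 (0.962) and SPB4 (0.960). IME1 was most like AUS1 (0.973), TFC8 (0.952) and ECM22 (0.952), and REC8 most like SKA1 (0.993), ALD2 (0.971) and VVS1 (0.970). They are over the same 8 arrays in 3 strains, and nothing is tested by them.

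Adjacent genes were read from the R64 gene table. DPA10 lies between CDA1 and CDA2. Relative to Δire1 it was higher in SSZ1OEΔire1 (2.66, SE 0.42, adjusted p = 0.0112) as well as in SSZ1OEΔire1Δscj1 (3.33, SE 0.38, adjusted p = 0.00129). The flanking genes beyond this run were not of that size: UBC12, next to CDA1, had −0.083 and 0.49, and IMH1, next to CDA2, had −0.024 and 0.17. UBC12 still passed in SSZ1OEΔire1Δscj1 (limma adjusted p = 0.00265), and IMH1 passed in neither. DIT2, the cytochrome P450 that acts after Dit1 in making dityrosine and the neighbour of DIT1, was 0.67 higher in SSZ1OEΔire1Δscj1 (SE 0.19, adjusted p = 0.0290) and 0.21 in SSZ1OEΔire1, which did not pass (adjusted p = 0.554). RPB7, on the other side of DIT1, passed in neither. The neighbours of NDT80 and SMK1 that were tested, EPT1, YPR053C and SEC8, passed in no comparison. FIP1, HAA1, SPO22, RPL20B and YOR314W did not pass either. In SSZ1OEΔire1Δscj1 against Δire1, YJL107C and SET4 (by IME2), ICL2 (by REC8) and PCI8 (by HOP1) were 1.11, 0.59, 0.62 and 0.27 higher (limma adjusted p = 0.00491, 0.0423, 0.00913 and 0.0356). ICL2 was 0.57 higher in SSZ1OEΔire1 (adjusted p = 0.0454). In SSZ1OEΔire1Δscj1 against SSZ1OEΔire1, UBC12 was 0.57 higher (limma adjusted p = 0.0112), PCI8 was 0.36 higher (0.0450) and RPL43B, by IME1, differed by −0.49 (0.0433).

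Further genes of the same programme were grouped by stage into 4 lists that leave out the 10 members. The middle list holds genes of nuclear division and prospore membrane growth. It also holds some of spore wall assembly, such as SPS22, CRR1 and GAS2, and 25 of its 26 genes were tested. Of these, 11 were higher and 0 lower in SSZ1OEΔire1 against Δire1 (median 0.75), 19 and 0 in SSZ1OEΔire1Δscj1 against Δire1 (median 1.12), and 3 and 0 between the overexpressing strains (median 0.44). All 9 genes of the late spore wall list were tested, and 2, 8 and 3 were higher with 0 lower (medians 0.54, 1.12 and 0.79). Over all tested genes the shares called higher were 7.48%, 21.3% and 6.28%, and among the dimmest 25% of genes 14.2%, 31.3% and 7.5%. Over the genes well above background on every array, 9, 14 and 2 of 20 middle genes and 2, 6 and 3 of 7 late genes were higher. The lists were drawn up with earlier results of these data known, so their counts describe these arrays and are not independent evidence.

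Several middle genes were higher in both overexpressing strains, as CDA1 and DIT1 were. SPO74 had levels of −8.98, −8.43 and −8.92 in Δire1, where it was not well above background, −7.02 and −6.30 in SSZ1OEΔire1, and −5.61, −6.05 and −5.66 in SSZ1OEΔire1Δscj1. The 3 strains did not overlap. SPO74 was at least 2.72-fold higher in SSZ1OEΔire1 and at least 5.02-fold higher in SSZ1OEΔire1Δscj1 than in Δire1. The limma adjusted p values of 0.00527 and 0.00044 belong to the fitted differences against signals at background, and not to these bounds. SPO74 entered the test only through the overexpressing strains, where it was high. The septin gene SPR28, of the prospore membrane, was 4.40-fold higher in SSZ1OEΔire1 than in Δire1 (2.14, SE 0.42, adjusted p = 0.0217). In SSZ1OEΔire1Δscj1 it was 8.80-fold higher (3.14, SE 0.38, adjusted p = 0.00167). SPS22, which acts in spore wall glucan assembly, was 4.73-fold and 7.99-fold higher (2.24, SE 0.38 and 3.00, SE 0.34; adjusted p = 0.0133 and 0.00135). SPR3, also a sporulation septin, was 2.64 higher in SSZ1OEΔire1Δscj1 than in Δire1 (SE 0.25, adjusted p = 0.000679) and 1.25 higher than in SSZ1OEΔire1 (SE 0.28, adjusted p = 0.0335). PFS1, needed for prospore formation, was 1.70 higher in SSZ1OEΔire1 (SE 0.38, adjusted p = 0.0323). SPR3 and PFS1 were not well above background on Δire1 replicate 3. They too entered the test only through the overexpressing strains, where they were high.

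Other genes had a further difference between the overexpressing strains, as NDT80 did. LDS2, a lipid droplet protein of spore wall formation, had levels of −4.85, −4.56 and −5.19 in Δire1, −4.35 and −3.52 in SSZ1OEΔire1, and −1.70, −1.63 and −2.18 in SSZ1OEΔire1Δscj1. The SSZ1OEΔire1Δscj1 arrays stood clear of the other 5. LDS2 was 8.15-fold higher in SSZ1OEΔire1Δscj1 than in Δire1 (3.03, SE 0.26, adjusted p = 0.000511) and 4.28-fold higher than in SSZ1OEΔire1 (2.10, SE 0.29, adjusted p = 0.0113). In SSZ1OEΔire1 against Δire1 LDS2 did not pass (0.93, adjusted p = 0.0809). OSW2, an outer spore wall gene, was higher in SSZ1OEΔire1Δscj1 than in SSZ1OEΔire1 (1.43, SE 0.26, adjusted p = 0.0202) and in SSZ1OEΔire1 than in Δire1 (1.01, SE 0.26, adjusted p = 0.0487). LDS1 and OSW1 were 3.08 (SE 0.58) and 1.97 (SE 0.41) higher in SSZ1OEΔire1Δscj1 than in Δire1, each well above background on 1 Δire1 array. Both entered the test only through the overexpressing strains, where they were high. Between the overexpressing strains RRT8, a relative of LDS2, was 0.79 higher (SE 0.12, adjusted p = 0.0132), the spore wall hydrolase CRR1 1.03 (SE 0.26, adjusted p = 0.0425) and the glucan-modifying enzyme GAS2 0.44 (SE 0.09, adjusted p = 0.0232). The dityrosine transporter DTR1 was 0.54 higher in SSZ1OEΔire1 than in Δire1 (SE 0.09, adjusted p = 0.0129).

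**Figure D3:**
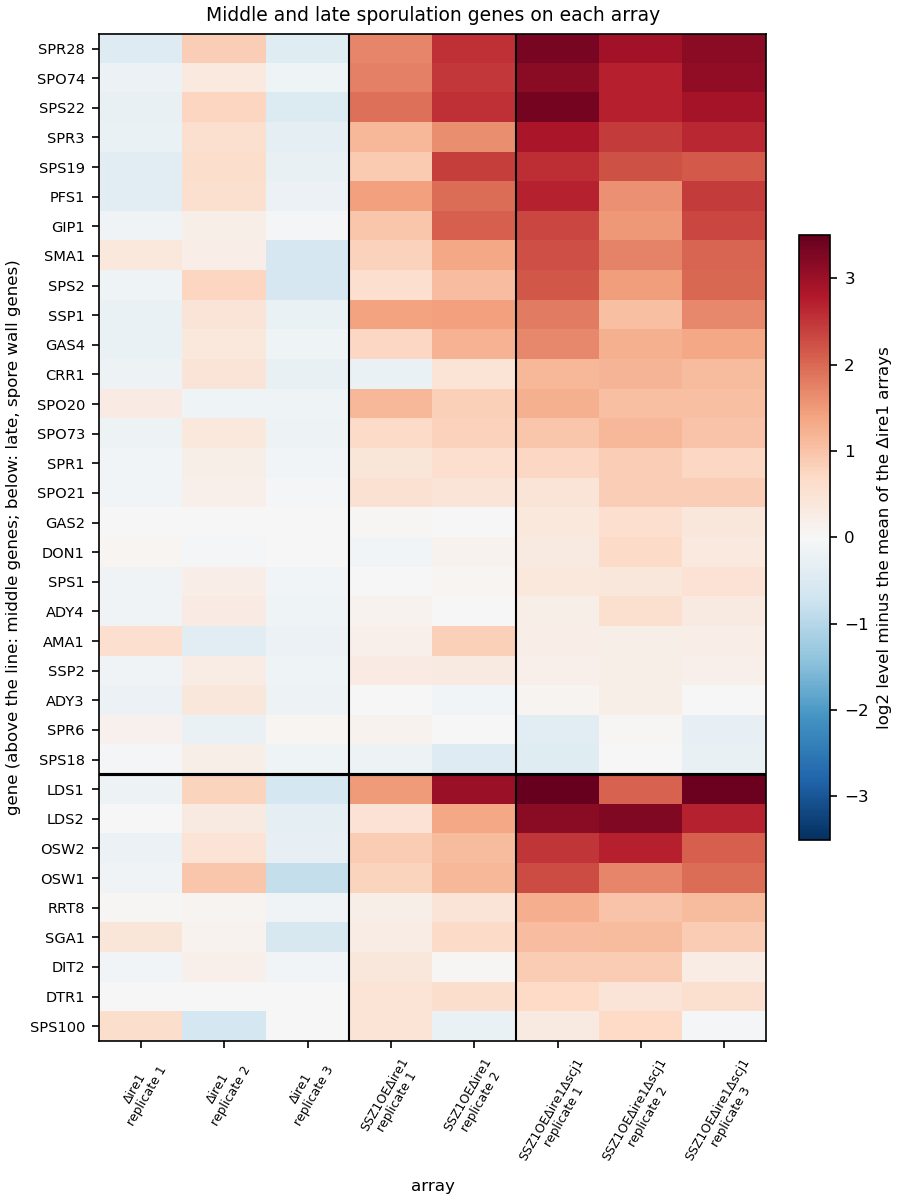
Level of the tested middle genes (above the line) and late spore wall genes (below it) on each array, as the difference from the mean of the 3 Δire1 arrays (colour, log2). Rows are genes, columns are the 8 arrays by strain. Most rows are red in SSZ1OEΔire1Δscj1 and less so in SSZ1OEΔire1, and the Δire1 replicate 2 column is redder than those of the other Δire1 arrays.

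The list counts moved with single arrays and with the slide row. The named calls counted here are at most the 4 largest per list and comparison, which leaves out DIT2 and HST1. Of 23 such calls in SSZ1OEΔire1Δscj1 against Δire1, 18 held with any 1 array left out, all but FAR1, HO, RME1, STE4 and UME6. For SSZ1OEΔire1 against Δire1 it was 2 of 12 (SPO74 and STE3), with 10 lost without SSZ1OEΔire1 replicate 2 and 8 without Δire1 replicate 3. It was 0 of 18 between the overexpressing strains, and all 18 were lost without SSZ1OEΔire1 replicate 1, which leaves that strain 1 array. The 11 middle genes in SSZ1OEΔire1 against Δire1 became 1 without SSZ1OEΔire1 replicate 2, 15 without Δire1 replicate 2, 6 after quantile normalization and 3 with slide row in the fit. The 19 in SSZ1OEΔire1Δscj1 against Δire1 stayed between 14 and 22 over all settings, and the 8 late genes between 6 and 9. Between the overexpressing strains no middle or late gene, and none of the 18 named calls, passed with slide row in the fit, and 8 middle genes passed without Δire1 replicate 2. Within slide row 1, 20 of 25 middle genes and 9 of 9 late genes were above Δire1 in SSZ1OEΔire1 (medians 0.53 and 0.54). Within row 2, 23 of 25 and 9 of 9 were above the Δire1 array in SSZ1OEΔire1Δscj1 (medians 1.28 and 1.58). Δire1 itself was lower in row 2 than in row 1 by a median of 0.24 for the middle and 0.43 for the late list. Row 2 holds 1 Δire1 array and row 1 includes Δire1 replicate 2, which stood apart, so this difference does not measure slide row alone.

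The early and entry lists were mixed. Of the early recombination and synapsis list 14 of 20 genes were tested, and 2, 2 and 1 were higher with 0 lower in the 3 comparisons, in the order used above (medians 0.074, 0.11 and 0.19). With 7.48%, 21.3% and 6.28% of all tested genes called higher, and 14.2%, 31.3% and 7.5% of the dimmest 25%, these counts were near or below the background. The first 2 medians turned to −0.20 and −0.21 with quantile normalization, which also called 1 and 4 early genes lower. Relative to Δire1, DMC1, the meiotic strand exchange protein, was 0.67 higher in SSZ1OEΔire1 (SE 0.13, adjusted p = 0.0201) and 0.71 in SSZ1OEΔire1Δscj1 (SE 0.12, adjusted p = 0.00415). MSH4, of meiotic crossing over, was 0.75 (SE 0.13, adjusted p = 0.0156) and 0.95 higher (SE 0.12, adjusted p = 0.00185). NDJ1, which tethers telomeres in meiosis, was 0.98 higher in SSZ1OEΔire1Δscj1 than in SSZ1OEΔire1 (SE 0.24, adjusted p = 0.0415).

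Of the entry regulators 15 of 16 were tested. In SSZ1OEΔire1 against Δire1, 2 were higher and 0 lower (median 0.084), and in SSZ1OEΔire1Δscj1 against Δire1 2 and 4 (median −0.12). Between the overexpressing strains the counts were 1 and 3 (median −0.14). Over all tested genes 7.48%, 21.3% and 6.28% were called higher and 3.88%, 16.9% and 5.57% lower in the same order. The last 2 medians turned to 0.30 and 0.18 under spike-in scaling. That scaling put the all-gene median at 0.13, 0.44 and 0.31 in the 3 comparisons. RIM4, an RNA-binding protein that controls translation of meiotic transcripts, had levels of −4.75, −5.71 and −5.52 in Δire1, −3.59 and −2.92 in SSZ1OEΔire1, and −4.76, −5.08 and −4.73 in SSZ1OEΔire1Δscj1. It was high on the SSZ1OEΔire1 arrays alone. RIM4 was 2.07 higher in SSZ1OEΔire1 than in Δire1 (SE 0.31, adjusted p = 0.00957) and lower in SSZ1OEΔire1Δscj1 than in SSZ1OEΔire1 (−1.60, SE 0.31, adjusted p = 0.0231). In SSZ1OEΔire1Δscj1 against Δire1 its difference was 0.47 (adjusted p = 0.213).

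Of the repressors, UME6, which binds early gene promoters, was lower in SSZ1OEΔire1Δscj1 than in Δire1 (−0.81, SE 0.22, adjusted p = 0.0233), as was RME1, a repressor of IME1 (−0.50, SE 0.14, adjusted p = 0.0299). The Sum1 complex that represses middle genes was looked at after its values were seen, and SUM1 itself passed in no comparison (0.22, −0.13 and −0.35 in order). Its partner HST1 was lower in SSZ1OEΔire1Δscj1 than in Δire1 (−0.25, SE 0.07, adjusted p = 0.0324), and RFM1 did not pass (0.35, adjusted p = 0.0951). With slide row in the fit 0 of the 15 entry regulators were called lower in either comparison with SSZ1OEΔire1Δscj1, and the calls of UME6, RME1 and RIM11 were lost. The kinase gene RIM11, which acts on Ime1 and Ume6, was 0.32 and 0.37 higher in SSZ1OEΔire1 and SSZ1OEΔire1Δscj1 than in Δire1 (SE 0.08 and 0.07, adjusted p = 0.0400 and 0.00640). The nutrient-regulated kinase gene RIM15 was 0.50 higher in SSZ1OEΔire1Δscj1 than in Δire1 (SE 0.09, adjusted p = 0.00596) and 0.43 higher than in SSZ1OEΔire1 (SE 0.10, adjusted p = 0.0381). MCK1 and MUM2, a kinase and a subunit of the messenger RNA methylation machinery, were lower in SSZ1OEΔire1Δscj1 than in SSZ1OEΔire1 (−0.41 and −0.38, SE 0.09 each, adjusted p = 0.0329 and 0.0421).

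**Figure D4:**
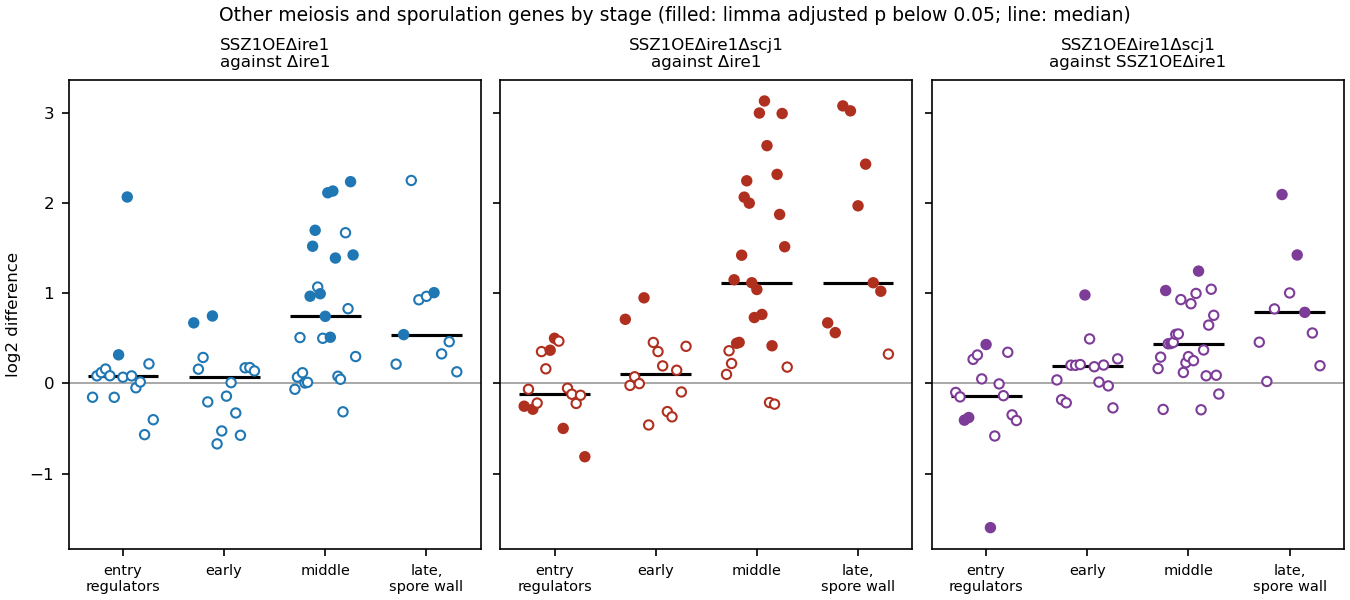
Log2 difference of each tested gene of the 4 stage lists (y axis) by list (x axis), in 1 panel per comparison; the 10 named members are not included. Filled points passed a limma adjusted p of 0.05 and lines are medians. The middle and late lists have their medians between 0.44 and 1.12 in the 3 panels, those of the entry and early lists between −0.14 and 0.19.

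Markers of mating type also differed between strains. The labels give no mating type, and meiosis in this species is a property of cells that carry both. All 7 a-cell markers were well above background on all 8 arrays. Summed on a linear scale where the 75th percentile is 1, they came to 7.49 to 7.83 in Δire1, 6.23 to 8.20 in SSZ1OEΔire1 and 3.93 to 5.22 in SSZ1OEΔire1Δscj1. In SSZ1OEΔire1 against Δire1, 0 of the 7 passed (median −0.029). In SSZ1OEΔire1Δscj1 against Δire1, 6 of the 7 were lower, where 16.9% of all tested genes were. Among them were STE2, the alpha-factor receptor (−0.77, SE 0.15, adjusted p = 0.00748), and MFA1, an a-factor gene (−1.16, SE 0.22, adjusted p = 0.00650). BAR1 and AGA2 were lower too (−0.72, SE 0.14 and −0.78, SE 0.10; adjusted p = 0.00748 and 0.00185). Against SSZ1OEΔire1, 4 of the 7 were lower, by −0.98 for BAR1, −0.75 for AGA2, −0.66 for STE2 and −0.61 for STE6 (adjusted p = 0.0154, 0.0124, 0.0453 and 0.0287). Over all tested genes 5.57% were called lower there. With spike-in scaling 0 of the 7 passed in either comparison with SSZ1OEΔire1Δscj1, and their medians were −0.31 and −0.32. With slide row in the fit 4 of the 7 passed against Δire1, MFA1 not among them, and 0 passed against SSZ1OEΔire1, whose arrays lie in the other row.

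The 4 alpha-cell markers summed to 0.139 to 0.163 in Δire1, 0.164 to 0.211 in SSZ1OEΔire1 and 0.286 to 0.318 in SSZ1OEΔire1Δscj1. Of the 4, 1, 2 and 2 were higher and 0 lower in the 3 comparisons, STE3 in each and MF(ALPHA)1 in those with SSZ1OEΔire1Δscj1. Over all tested genes the shares called higher were 7.48%, 21.3% and 6.28%. MF(ALPHA)2 and SAG1 passed in none, with differences from Δire1 of −0.40 and −0.14 in SSZ1OEΔire1 and of −0.42 and 0.15 in SSZ1OEΔire1Δscj1. MF(ALPHA)2 was not well above background on Δire1 replicate 3 or on SSZ1OEΔire1Δscj1 replicates 1 and 3. STE3, the a-factor receptor, had levels of −6.24, −5.97 and −6.33 in Δire1, −4.34 and −3.79 in SSZ1OEΔire1, and −3.00, −3.17 and −3.18 in SSZ1OEΔire1Δscj1, with no overlap among the strains. It was 0.95 higher in SSZ1OEΔire1Δscj1 than in SSZ1OEΔire1 (SE 0.18, adjusted p = 0.0206). MF(ALPHA)1, an alpha-factor gene, was 2.08 higher in SSZ1OEΔire1Δscj1 than in Δire1 (SE 0.36, adjusted p = 0.00520) and 1.65 higher than in SSZ1OEΔire1 (SE 0.40, adjusted p = 0.0416). With slide row in the fit these calls against SSZ1OEΔire1 were lost and those against Δire1 were kept.

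The 8 haploid-cell markers, which are shut off in cells of both mating types, were well above background on every array and summed to 8.07 to 8.35 in Δire1, 7.62 to 8.05 in SSZ1OEΔire1 and 7.02 to 7.62 in SSZ1OEΔire1Δscj1. Of the 8, 4 were lower in SSZ1OEΔire1Δscj1 than in Δire1: FAR1, of pheromone arrest (−0.80, SE 0.19, adjusted p = 0.0152), the mating type switching endonuclease gene HO (−0.65, SE 0.15, adjusted p = 0.0145), RME1, which is also an entry regulator, and STE4, a G protein subunit (−0.24, SE 0.07, adjusted p = 0.0241). Over all tested genes 16.9% were called lower in that comparison. The STE4 difference turned to 0.17 with spike-in scaling, under which 0 of the 8 passed, as with slide row in the fit. FAR1 was also lower in SSZ1OEΔire1Δscj1 than in SSZ1OEΔire1 (−1.02, SE 0.22, adjusted p = 0.0284). HO was lower in SSZ1OEΔire1 than in Δire1 (−0.96, SE 0.17, adjusted p = 0.0158). Both calls were lost with slide row in the fit. The part of these markers in the levels of the meiosis and sporulation genes was not tested.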

How the data were processed

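RNA of 8 samples (100 ng each, oligo-dT primed, Cy3-labelled) was read on 8 arrays of 1 slide. The authors deposited spot intensity values made with Agilent Feature Extraction 10.7.1.1, background-subtracted and spatially detrended per the file headers. Their deposited table of log2 values per probe, of unstated scale and centring, matched the scanner values as log2 signal minus the 75th percentile and the probe's median to within median absolute differences of 0.00097 to 0.0039 per array, with column medians of −0.034 to 0.011, and was used as an alternative only. The array design rests on sacCer1, per the file headers, and probe positions and sequences are not used here.

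Each probe's log2 processed signal was averaged over its spots without outlier spots (1.10% to 1.57%), and the 75th percentile of non-control probes on that array was subtracted. Each member had 1 probe with 9 to 10 spots. More than 0.5 of a probe's spots had to be well above background for the probe to count as such, and 1 group with this on all its arrays was enough for testing. Where a name had several probes, the brightest was used. Symbols and neighbours came from a RefSeq table of assembly R64, which matched 5903 of 6576 names.

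Tests used limma 3.58.1 (R 4.3.3, with the package data.table at version 1.17.8), with 3 group means fitted over 8 arrays, eBayes and Benjamini-Hochberg adjustment over 6244 genes, two-sided at 0.05. The steps were tested on simulated data. Where no array of a group measured a gene, its fold is a bound: that group is set, per array, at the dimmest signal accepted there, or at the gene's own if higher. Members and lists were chosen with earlier results of these data known. The text names the 10 members, the targeted genes, the neighbours and the Sum1 complex. Beyond these it names at most 4 called genes per list and comparison, by size, and 3 genes of highest r per called member. Alternatives were the background correction (normexp on median spot and background intensities, offset 50), 3 scalings, 2 filters, the probe rule, the deposited table, slide row and replicate number as blocks and leaving out each array. Median of spots and an intensity trend were chosen after seeing the data. On each array 90.5% to 95.9% of non-control spots were well above background, with 0 saturated. The number of arrays limits the precision: the median SE of a difference was 0.10 to 0.12.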

Additional observations from a re-analysis of the deposited data

How the results depend on the processing

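Over 20 alternatives the member differences kept their direction and side of the threshold in 452 cases, lost the call in 55, gained it in 6 and changed sign in 24. The calls of NDT80, CDA1 and DIT1 in SSZ1OEΔire1Δscj1 against Δire1 held in every alternative run. Genes called numbered 709 in SSZ1OEΔire1 against Δire1, 2390 in SSZ1OEΔire1Δscj1 against Δire1 and 740 between the overexpressing strains. Spike-in scaling gave 203, 2064 and 161, slide row as a block 252, 1065 and 2, and leaving out 1 array 59 to 1504, 1427 to 3166 and 3 to 1526. In the first comparison the counts were 281 and 59 without SSZ1OEΔire1 replicates 1 and 2, and 342, 1504 and 247 without Δire1 replicates 1, 2 and 3. In the second they were 1427 without Δire1 replicate 3 and 1560 without SSZ1OEΔire1Δscj1 replicate 1. The last fell to 3 and 204 without SSZ1OEΔire1 replicates 1 and 2, which leaves that strain 1 array whose spread is taken from the others, to 369 without Δire1 replicate 3 and to 127 and 273 without SSZ1OEΔire1Δscj1 replicates 1 and 2, and was 1526 without Δire1 replicate 2. Normexp gave 1076 there, 424 higher and 652 lower. The split of higher to lower calls was 467 to 242, 1333 to 1057 and 392 to 348. It became 182 to 21, 2021 to 43 and 150 to 11 with spike-in scaling, 339 to 377, 943 to 1381 and 356 to 310 with quantile normalization, and 371 to 346, 989 to 1573 and 358 to 438 with median scaling.

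Members called higher in SSZ1OEΔire1 against Δire1 numbered 2, and 0 to 2 with 1 array left out. In SSZ1OEΔire1Δscj1 against Δire1 they numbered 7, 8 with spike-in scaling and 4 with quantile normalization. They numbered 5 with normexp, median scaling or slide row as a block. They numbered 6 with no filter, the deposited table or the median of spots, and 5 to 6 with 1 array left out. In SSZ1OEΔire1Δscj1 against SSZ1OEΔire1 they numbered 2, 3 with median or spike-in scaling, 1 with normexp, quantile normalization, no filter, the median of spots or an intensity trend, 0 with slide row as a block and 0 to 2 with 1 array left out. Members called lower in SSZ1OEΔire1 against Δire1 numbered 1, 0 with spike-in scaling or slide row as a block and 0 to 1 with 1 array left out. In SSZ1OEΔire1Δscj1 against Δire1 they numbered 1, 0 with spike-in scaling, 2 with no filter, which adds SMK1 although no SSZ1OEΔire1Δscj1 array measured it, and 0 to 2 with 1 array left out.

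Same-numbered arrays deviated from their group means with correlations of −0.038 to 0.21, not all above 0.1, and not every array correlated best with its own number, so the numbers were not taken as pairs. With the replicate block 288, 2044 and 594 genes were called, SPS4 was no longer lower in SSZ1OEΔire1 (0 members) and 1 member was higher between the overexpressing strains.

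Signs changed for small differences. HOP1 in SSZ1OEΔire1 against Δire1 became −0.24 with quantile normalization, −0.017 with median scaling, −0.083 with slide row as a block, −0.038 with the replicate block, and −0.083 and −0.31 without Δire1 replicate 3 and SSZ1OEΔire1 replicate 2 (range with 1 array left out −0.31 to 0.39). NDT80 there became 0.013 without Δire1 replicate 2 (range −0.30 to 0.013). IME1 between the overexpressing strains became −0.080 with normexp, −0.097 with quantile normalization, −0.012 with median scaling, −0.88 with slide row as a block, −0.16 with the replicate block, −0.0068 with the median of spots, and −0.035 and −0.040 without SSZ1OEΔire1 replicate 1 and SSZ1OEΔire1Δscj1 replicate 3 (range −0.040 to 0.11). IME2 became −0.027 with normexp and −0.097 without SSZ1OEΔire1Δscj1 replicate 2 (range −0.097 to 0.33), and SPS4 −0.11 with slide row as a block. REC8 became 0.24 with spike-in scaling, 0.23 with slide row as a block, 0.033 with the replicate block, and 0.17, 0.053 and 0.033 without SSZ1OEΔire1 replicate 2 and SSZ1OEΔire1Δscj1 replicates 1 and 3 (range −0.30 to 0.17). STE4 in SSZ1OEΔire1Δscj1 against Δire1 became 0.17 with spike-in scaling. The cause was not tested. SMK1 in SSZ1OEΔire1Δscj1 and CDA2 in Δire1 were well above background on 0 arrays. Their folds between SSZ1OEΔire1Δscj1 and Δire1 are therefore given as bounds. The CDA2 differences that were tested and plotted are fitted values.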
